A study of Homo sapiens with 9 samples.

Results

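The hairpins hsa-mir-144, hsa-mir-451a, hsa-mir-451b, hsa-mir-4732, hsa-mir-486-1 and hsa-mir-486-2 are 6 of the 1485 miRNA hairpins counted in 9 small RNA libraries. They were taken by name, as the hairpins at the locus of miR-144 and miR-451a and those of miR-486. The rule used no measured values, but earlier results of these data were known when the members were chosen. HEK293E, a derivative of the human embryonic kidney line HEK293, gave 7 libraries: replicates 1 and 2 of siGFP, siControl and siERH-3, and a siERH-5 library numbered replicate 2. HEK293E cells received siRNA with a lipid reagent on day 0 and again on day 3 and were harvested on day 5. K562, a human leukaemia line with erythroid features, gave 2 libraries, siGFP and siERH-5, from cells transfected once by electroporation and harvested 4 days later. siGFP and siControl are control siRNAs, and siERH-3 and siERH-5 are siRNAs against ERH, a small nuclear protein described as a partner of the Microprocessor subunit DGCR8. All 9 libraries thus carry an siRNA, and cell line, transfection method, harvest day and experimental group cannot be told apart. ERH mRNA is not read by this assay, so the knockdown could not be checked here.

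Microprocessor, the complex of DROSHA and DGCR8, cuts miRNA hairpins out of primary transcripts, and DICER then removes the loop. miR-451a is a well-known exception, since its short hairpin is cut by AGO2 in place of DICER. miR-144 and miR-451a come from one primary transcript that is activated by GATA1 in red cell precursors, and the short hairpin of miR-451a is known to be cut better when miR-144 lies beside it. miR-486 lies within ANK1, the gene of the red cell membrane protein ankyrin, and is also abundant in muscle.

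On chromosome 17 of GRCh38, hsa-mir-451a (MIR451A) spans 28861369 to 28861440, hsa-mir-144 (MIR144) 28861533 to 28861618 and hsa-mir-4732 (MIR4732) 28861655 to 28861730, all on the minus strand. In GENCODE release 29 all 3 overlap an exon of the lincRNA AC024267.1. Between hsa-mir-451a and hsa-mir-144 lie 92 bases, and between hsa-mir-144 and hsa-mir-4732 lie 36. hsa-mir-451b (MIR451B, 28861371 to 28861438) lies on the plus strand across from hsa-mir-451a, and 68 bases of the loci overlap.

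RefSeq sequences (GRCh38.p14) were matched for 2 of the 6 members, hsa-mir-144 and hsa-mir-4732. The hairpins are shown because the rows of the table are hairpins, with the mature arms in capitals, 5′ to 3′. Reads of both arms enter 1 row, so the arms could not be told apart here.
hsa-mir-144: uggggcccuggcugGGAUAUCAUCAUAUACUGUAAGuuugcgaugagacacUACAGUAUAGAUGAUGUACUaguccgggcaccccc
hsa-mir-4732: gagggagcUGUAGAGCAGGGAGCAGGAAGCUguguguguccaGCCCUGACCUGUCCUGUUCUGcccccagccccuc

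The mature miRNAs follow with the seed, bases 2 to 8, in capitals, since the seed sets which mRNAs a miRNA can pair with.
hsa-miR-144-3p: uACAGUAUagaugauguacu
hsa-miR-144-5p: gGAUAUCAucauauacuguaag
hsa-miR-4732-5p: uGUAGAGCagggagcaggaagcu
hsa-miR-4732-3p: gCCCUGACcuguccuguucug
None of the 4 shares bases 2 to 8 with another of the 2370 mature miRNA names in the RefSeq table. Over bases 2 to 7, hsa-miR-144-3p has the same letters as 1 other, hsa-miR-101-3p, and hsa-miR-4732-3p as 4 others, which include hsa-miR-125a-5p and hsa-miR-125b-5p. The neighbours hsa-mir-144 and hsa-mir-4732 thus carry different seeds on every arm.

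The libraries held between 2609929 and 3320017 counts. A count of 3, taken as the floor of detection, corresponds to 0.904 to 1.15 per 1000000 counts of a single library. Levels below are given as counts and as the deposited RPM (reads per 1000000, with 1 count added to each hairpin before scaling). Of the marker lists, 4 of 6 haematopoietic hairpins were higher in K562 (Benjamini-Hochberg adjusted p under 0.05 in the quasi-likelihood test of edgeR), among them hsa-mir-142 and hsa-mir-223, and 1, hsa-mir-155, was lower, with 0 and 2 counts in the K562 libraries, where 28.9% of all hairpins were higher and 35.2% lower. Epithelial hairpins had a summed level of 1776 to 2761 RPM in HEK293E and 2859 and 3327 RPM in K562, with 3 of 9 lower, near the share of all hairpins, and 4 of 9 higher in K562. On library totals these counts were 5 and 4, where 479 of all 790 hairpins were lower and 115 higher. Hairpins were tested where they averaged 10 counts or more over the 9 libraries. hsa-mir-223 and, among the epithelial hairpins called higher, hsa-mir-205 did so through their K562 counts alone. In turn hsa-mir-155 and, among the epithelial hairpins called lower, hsa-mir-429 did so through their HEK293E counts alone. hsa-mir-429 had 2 and 7 counts in the K562 libraries. A call in the other direction was hardly open to any of these hairpins. Muscle hairpins summed to 35.7 to 107 RPM in HEK293E and 18.0 and 45.5 RPM in K562, where 0 of 4 tested were called in either direction and, on library totals, 2 were lower. The liver hairpin hsa-mir-122 had 1.15 to 17.8 RPM in HEK293E and 13.0 and 34.3 RPM in K562. It was called higher in K562, at 2.64 ± 0.68 on the log2 scale (SE; edgeR adjusted p = 0.00423). On library totals it was at 1.64 and was not called.

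The first comparison set the cell lines against each other. hsa-mir-144 and hsa-mir-451a were among the hairpins that set K562 apart most, while miR-486 differed less and was plainly present in HEK293E. hsa-mir-451a had 60425 counts in K562 siGFP and 41320 in K562 siERH-5, or 23104 and 12440 RPM. Its 7 HEK293E libraries held 51 to 105 counts, or 16.7 to 32.6 RPM with a median of 25.9 RPM. hsa-mir-144 had 20669 and 35249 counts in K562 siGFP and siERH-5, or 7903 and 10613 RPM, against 49 to 87 counts and 16.3 to 27.1 RPM in HEK293E. No HEK293E library came near either K562 library for these 2 hairpins. By count, hsa-mir-451a was the 12th most abundant hairpin in K562 siGFP and the 17th in siERH-5, and between the 411th and the 514th in HEK293E.

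**Figure D1:**
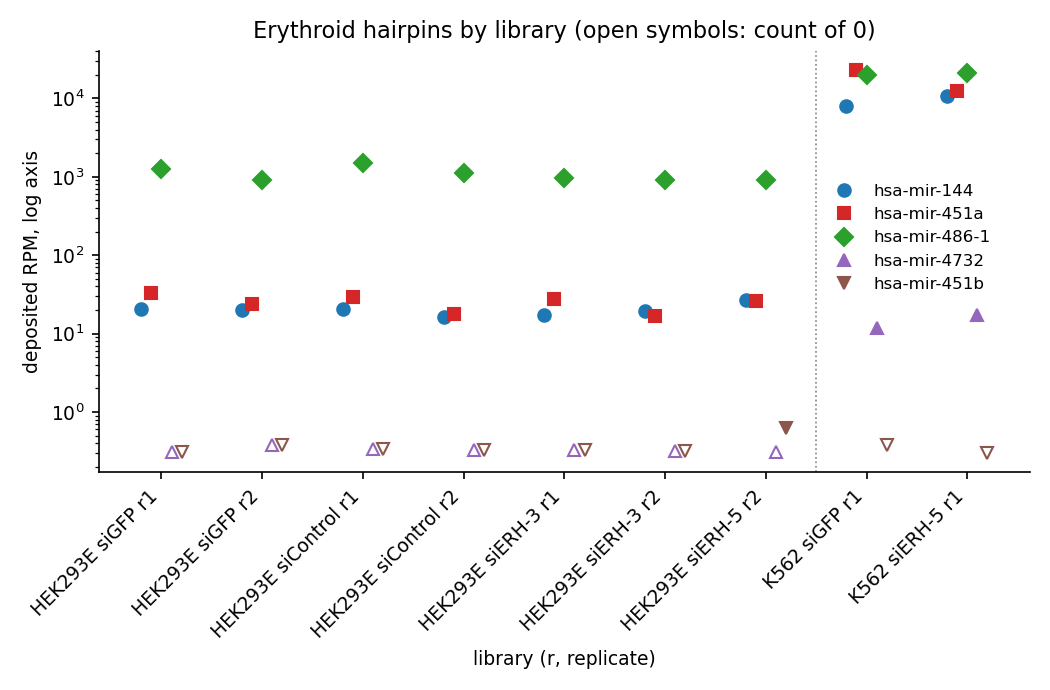
Deposited RPM (log axis) of 5 hairpins in each of the 9 libraries, with open symbols where the count was 0; hsa-mir-486-1 stands for both miR-486 copies. In K562, hsa-mir-144, hsa-mir-451a and hsa-mir-486-1 sit between 7903 and 23104 RPM, while in HEK293E hsa-mir-144 and hsa-mir-451a lie at 16.3 to 32.6 RPM and hsa-mir-486-1 at 900 to 1507 RPM.

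On chromosome 8, hsa-mir-486-1 (MIR486-1, 41660441 to 41660508, minus strand) and hsa-mir-486-2 (MIR486-2, 41660444 to 41660507, plus strand) face each other in an intron of ANK1, overlapping by 64 bases. hsa-mir-486-1 had 51998 and 69798 counts in K562 siGFP and siERH-5, or 19882 and 21014 RPM. In HEK293E it had 2360 to 4523 counts, or 900 to 1507 RPM. hsa-mir-486-2 differed from hsa-mir-486-1 by 3 to 6 counts in the HEK293E libraries and by 71 and 66 counts in the K562 libraries. The copies therefore hold 1 measurement and cannot be told apart, and only hsa-mir-486-1 is described further. In K562, hsa-mir-144, hsa-mir-451a and hsa-mir-486-1 together made up 5.09% of all hairpin counts with siGFP and 4.41% with siERH-5, against 0.0935% to 0.156% in HEK293E.

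The remaining members of the chromosome 17 locus were scarce. hsa-mir-4732 had 30 counts in K562 siGFP and 57 in K562 siERH-5, and 0 in each of the 7 HEK293E libraries. Against a floor of 3 counts over the 21366225 counts of the HEK293E libraries, or 0.140 per 1000000, this is at least 81.7-fold higher with siGFP and at least 122-fold higher with siERH-5. Per count of hsa-mir-144, its neighbour, hsa-mir-4732 had 0.00145 counts in K562 siGFP and 0.00162 in siERH-5, so the 49 to 87 counts of hsa-mir-144 in a HEK293E library leave no room to detect it there at that ratio. hsa-mir-451b had a single count, in HEK293E siERH-5, and 0 in the other 8 libraries, including the K562 libraries in which the opposite strand gave 60425 and 41320 counts.

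Across 790 hairpins averaging 10 counts or more, in a fit over all 9 libraries with siERH as a term, 28.9% were higher in K562 (228) and 35.2% lower (278), and on library totals 115 were higher and 479 lower. hsa-mir-451a was higher by 10.49 ± 0.24 on the log2 scale (SE, 2 against 7 libraries; edgeR adjusted p = 3.78e-12), the 3rd largest difference of the 790. hsa-mir-144 was higher by 9.82 ± 0.19 (SE; edgeR adjusted p = 9.14e-13), the 5th largest. For hsa-mir-486-1 the difference was 5.26 ± 0.15 (SE; edgeR adjusted p = 2.29e-11), the 43rd largest. hsa-mir-4732 was below the minimum over all 9 libraries, and with the minimum lowered to 5 counts it passed through its K562 counts alone, where 28.4% of 960 hairpins were higher. The K562 libraries differ in siRNA, so the spread behind these tests comes mostly from HEK293E. With library totals in place of TMM scaling, the median of all hairpins moved from -0.20 to -1.18, and the differences of hsa-mir-451a, hsa-mir-144 and hsa-mir-486-1 became 9.48, 8.84 and 4.28. Relative to the median of all hairpins, they were 10.69, 10.02 and 5.46 with TMM and 10.66, 10.02 and 5.47 with library totals.

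**Figure D2:**
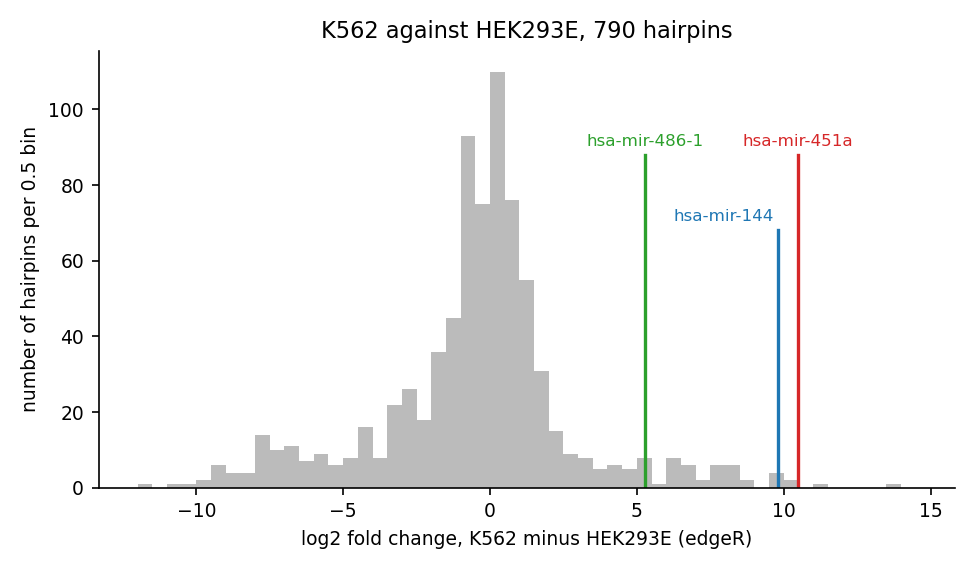
Histogram of the log2 fold change between K562 and HEK293E over 790 hairpins, in bins of 0.5, with the members marked by vertical lines. hsa-mir-451a at 10.49 and hsa-mir-144 at 9.82 lie at the far right end, and hsa-mir-486-1 at 5.26 lies inside the right tail.

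How low the HEK293E levels were relative to K562 is seen against other hairpins abundant in K562. The 119 hairpins with at least 1000 RPM in K562 siGFP were ranked by their HEK293E control mean as a percent of the K562 siGFP level. On this measure hsa-mir-451a was the 2nd lowest, at 0.112%, and hsa-mir-144 the 4th lowest, at 0.244%. The myeloid hairpin hsa-mir-223 was lowest, at 0.0240%, with 1 to 25 counts in a HEK293E library against 32446 in K562 siGFP, and hsa-mir-142, made in all blood cells, was 3rd, at 0.171%. hsa-mir-486-1 stood at 5.99%. In the other direction, hairpins abundant in HEK293E went down to 0.229% of their HEK293E control level in K562 siGFP, the value of hsa-mir-551b. Whether the 49 to 105 counts of hsa-mir-144 and hsa-mir-451a in HEK293E libraries came from the HEK293E cells was not tested.

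Hairpins with the pattern most like the members over the 9 libraries were sought by Pearson's r of log2(CPM + 1), where CPM is the count per 1000000 counts after TMM scaling. For hsa-mir-144 the 5 most alike were hsa-mir-337, hsa-mir-3667, hsa-mir-1273h, hsa-mir-548x and hsa-mir-548ax, with r from 0.996 to 0.999. For hsa-mir-451a they were hsa-mir-146b, hsa-mir-1247, hsa-mir-144, hsa-mir-185 and hsa-mir-767, also with r from 0.995 to 0.996. hsa-mir-144 thus ranked 3rd for hsa-mir-451a, while hsa-mir-451a was not among the 5 most alike to hsa-mir-144. The libraries form 2 clusters, the cell lines, and r here describes mostly the difference between them. hsa-mir-3667, for example, had 237 and 391 RPM in K562 siGFP and siERH-5 and at most 0.766 RPM in HEK293E. Only hairpins averaging 10 counts or more over the 9 libraries entered. hsa-mir-337, hsa-mir-3667, hsa-mir-548x, hsa-mir-548ax, hsa-mir-1247 and hsa-mir-767 had at most 3.45 RPM in HEK293E and entered through their K562 counts alone. A high r was largely set in advance for them.

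In K562, siERH-5 was compared with siGFP in 1 library each, with no replicate check and no p-value. hsa-mir-451a was the one member with a large difference: its level was lower with siERH-5, whereas hsa-mir-144, its neighbour on the same transcript, lay near the median of all hairpins. In CPM scaled over the 2 libraries, hsa-mir-451a had 25497 with siGFP and 11284 with siERH-5, a log2 ratio of -1.18 (95% counting interval -1.19 to -1.16), or 2.26-fold lower. Only 6.81% of the 646 hairpins averaging 10 counts or more were at least 2-fold lower and 10.1% 2-fold higher, and hsa-mir-451a was the 29th lowest. On library totals its log2 ratio was -0.89, or 1.86-fold lower, which is short of 2-fold. The hairpins at least 2-fold lower then numbered 23 in place of 44 and those 2-fold higher 109 in place of 65, while the median of all hairpins moved from 0.11 to 0.37. Relative to that median the ratio of hsa-mir-451a was -1.29 with TMM and -1.26 on library totals.

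hsa-mir-144 had 8721 CPM with siGFP and 9626 with siERH-5, a log2 ratio of 0.14 (counting interval 0.12 to 0.17), and lay 0.03 above the median of all hairpins with TMM and 0.05 above it on library totals. hsa-mir-4732, on the other side of hsa-mir-144, had a log2 ratio of 0.28, but its 30 and 57 counts leave a counting interval of -0.33 to 0.93. hsa-mir-486-1 had 21941 and 19061 CPM, a log2 ratio of -0.20 (counting interval -0.22 to -0.19) with TMM and 0.08 on library totals, so its direction flips with the scaling. Relative to the median it was -0.32 with TMM and -0.29 on library totals. These intervals cover counting error only and compare 2 libraries, not the conditions.

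Ratios of hairpins within 1 library do not depend on the scaling. In K562 hsa-mir-451a stood at 2.92 counts per count of hsa-mir-144 with siGFP and at 1.17 with siERH-5, a log2 change of -1.32 (95% counting interval -1.35 to -1.29). hsa-mir-486-1, from another chromosome, stood at 0.861 counts per count of hsa-mir-451a with siGFP and at 1.69 with siERH-5, a log2 change of 0.97. Against hsa-mir-144 its log2 ratio went from 1.33 to 0.99, a change of -0.35. The ratio of hsa-mir-4732 to hsa-mir-144 changed by 0.16 on the log2 scale, with a counting interval of -0.48 to 0.79. Of the ratios among these members, those that include hsa-mir-451a thus changed most between the 2 libraries.

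**Figure D3:**
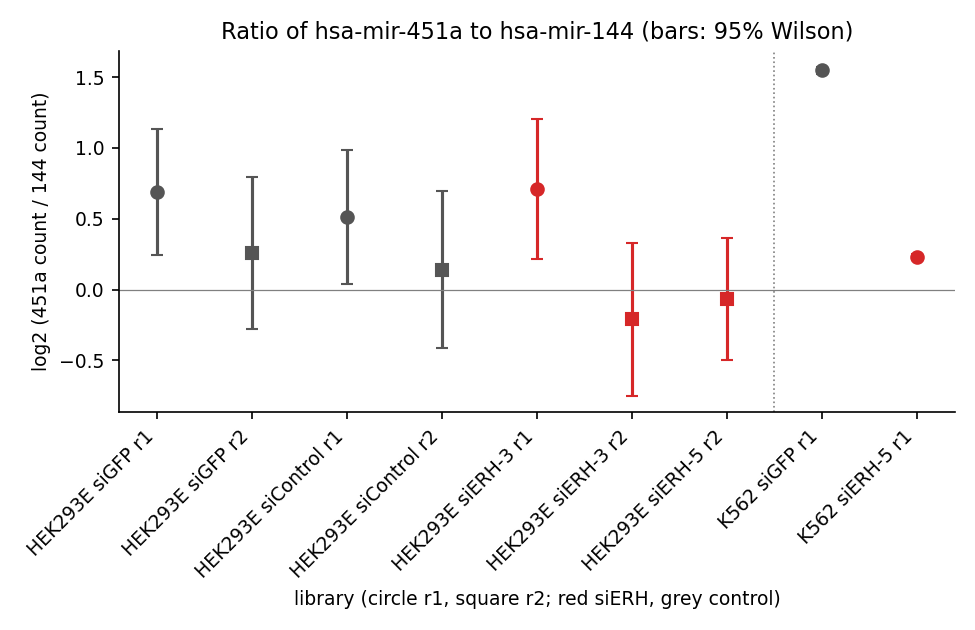
Log2 ratio of the hsa-mir-451a count to the hsa-mir-144 count in each library (circles replicate 1, squares replicate 2, red siERH, grey control), with bars for the 95% Wilson interval of the share, which covers counting error only. K562 siGFP stands at 1.55 and K562 siERH-5 at 0.23, and the HEK293E libraries lie between -0.21 and 0.71 with wide intervals.

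In HEK293E, siERH was compared with control siRNAs, 3 libraries against 4. Of the members, hsa-mir-144, hsa-mir-451a, hsa-mir-486-1 and hsa-mir-486-2 averaged 10 counts or more and were tested. The 2 miR-486 copies were lower with siERH and hsa-mir-144 and hsa-mir-451a did not pass the test, where 16.2% of all 773 hairpins were lower (125) and 23.8% higher (184). On library totals 67 were lower and 212 higher, and the median over all hairpins moved from -0.01 to 0.19 on the log2 scale.

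hsa-mir-486-1 had 1161 and 995 CPM with siGFP and 1588 and 1286 CPM with siControl in replicates 1 and 2. With siERH-3 it had 894 and 852 CPM, and with siERH-5 836 CPM. All 3 siERH libraries lay below all 4 control libraries, which differed among themselves, with siControl above siGFP in both replicates. Such a separation was found for 44.6% of all 773 hairpins. The 4 control libraries averaged 1257 ± 251 CPM (SD, n = 4) and the 3 siERH libraries 861 ± 30.1 CPM (SD, n = 3). On the log2 scale hsa-mir-486-1 changed by -0.55 ± 0.18 (SE), with an edgeR adjusted p of 0.0336. Within replicate 1 the difference of log2 CPM was -0.60, with 1 siERH library, and within replicate 2 it was -0.42. A fit of the replicate 2 libraries alone gave -0.39 (edgeR adjusted p = 0.139).

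The call of hsa-mir-486-1 depended on the scaling and on which libraries were fitted. With the replicate block, which pairs the samples, it was kept, at -0.51 (edgeR adjusted p = 0.0167). On library totals the log2 fold change was -0.36 (edgeR adjusted p = 0.163), or -0.55 relative to the median of all hairpins, where TMM gave -0.54, and in deposited RPM the ranges overlapped, since siERH-5 with 908 RPM was above siGFP replicate 2 with 904 RPM. Without siControl replicate 1 the change was -0.42 (edgeR adjusted p = 0.0997). Leaving out siERH-3 replicate 1, siERH-3 replicate 2 or siERH-5 gave -0.55, -0.53 and -0.52 (edgeR adjusted p = 0.0938, 0.11 and 0.107). Against siGFP alone it was -0.34 (edgeR adjusted p = 0.184) and against siControl alone -0.77 (edgeR adjusted p = 0.0121).

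hsa-mir-451a had 30.0 and 25.7 CPM with siGFP, 30.5 and 20.5 CPM with siControl, 25.2 and 15.5 CPM with siERH-3 in replicates 1 and 2, and 23.6 CPM with siERH-5. The ranges overlapped, and replicate 2 was lower than replicate 1 for each siRNA with both. On the log2 scale siERH differed from control by -0.32 ± 0.24 (SE), with an edgeR adjusted p of 0.328. With a trend of the log2 change on hairpin GC content removed it was -0.76 (edgeR adjusted p = 0.0337), and hsa-mir-486-1 was at -0.38 (edgeR adjusted p = 0.127). With the replicate block as well, hsa-mir-451a was at -0.68 (edgeR adjusted p = 0.0193) and hsa-mir-486-1 at -0.38 (edgeR adjusted p = 0.0585).

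hsa-mir-144 had 18.6 and 21.5 CPM with siGFP, 21.4 and 18.6 CPM with siControl, 15.4 and 18.0 CPM with siERH-3 and 24.7 CPM with siERH-5. siERH-5 was the highest of the 7 libraries and siERH-3 replicate 1 the lowest, so the siERH siRNAs fell on both sides of the controls. The log2 difference was -0.04 ± 0.23 (SE), with an edgeR adjusted p of 0.885, and on library totals it was 0.14 (edgeR adjusted p = 0.705). Relative to the median of all hairpins it was -0.03 with TMM and -0.05 on library totals. At 49 to 105 counts a library, changes of the size of these standard errors could not be detected for either hairpin.

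**Figure D4:**
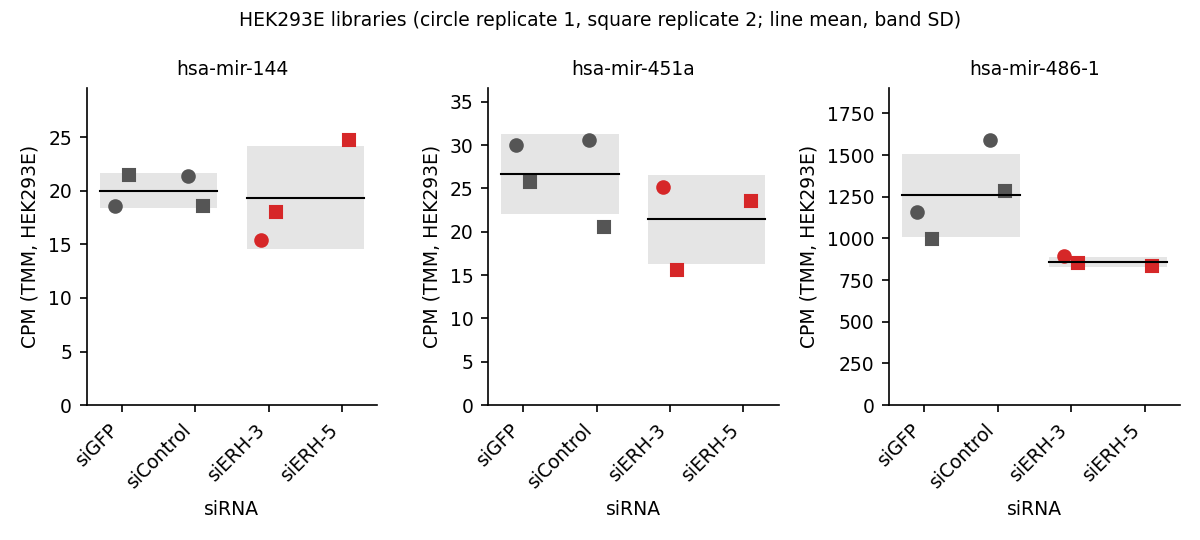
CPM (TMM over the HEK293E libraries) of hsa-mir-144, hsa-mir-451a and hsa-mir-486-1 by siRNA, with circles for replicate 1 and squares for replicate 2, a line for the mean of the control or siERH libraries and a band for the SD. For hsa-mir-486-1 the siERH libraries sit at 836 to 894 CPM, under the controls at 995 to 1588 CPM, and for hsa-mir-144 and hsa-mir-451a the points of the arms overlap.

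Within HEK293E libraries the log2 ratio of hsa-mir-486-1 to hsa-mir-144 averaged 5.96 ± 0.30 (SD, n = 4) without and 5.50 ± 0.39 (SD, n = 3) with siERH, so that the difference was -0.45 (two-sided exact permutation test over 35 splits, p = 0.143, 0.286 adjusted over the 2 ratios tested). It was -0.23 within replicate 1 and -0.50 within replicate 2. hsa-mir-451a relative to hsa-mir-144, where K562 showed its largest difference, did not pass either (difference -0.26, exact permutation p = 0.429), and its differences were 0.11 within replicate 1 and -0.34 within replicate 2. Whether the siERH difference of this ratio is unlike in the 2 cell lines was not tested, since K562 has 1 library an arm.

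**Figure D5:**
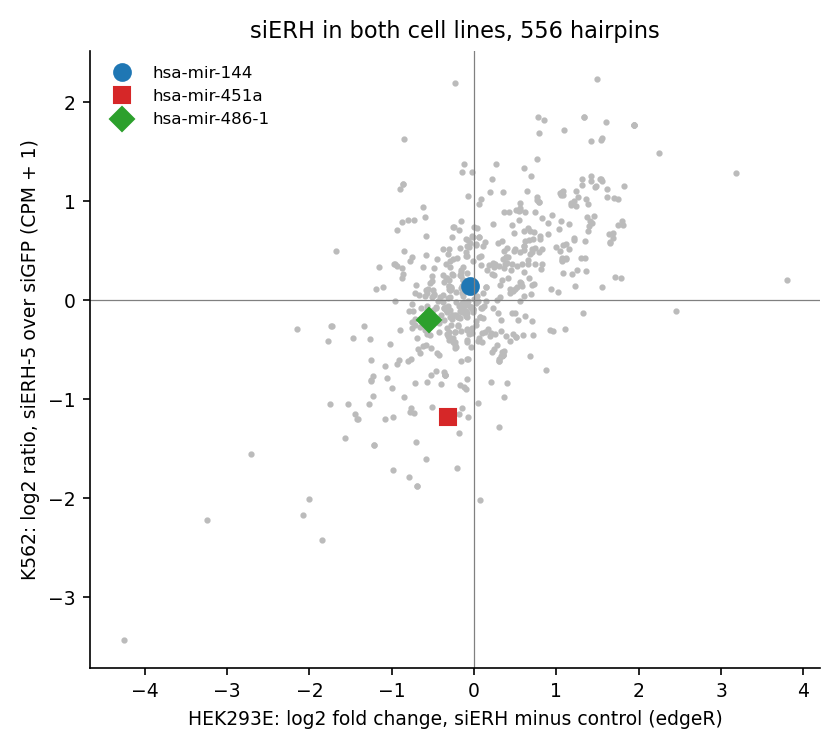
Log2 fold change with siERH in HEK293E (x axis, edgeR) against the log2 ratio of siERH-5 to siGFP in K562 (y axis, CPM + 1) for the 556 hairpins measured in both, with the members marked. hsa-mir-451a lies at -0.32 and -1.18, hsa-mir-144 at -0.04 and 0.14, and hsa-mir-486-1 at -0.55 and -0.20.

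Beside the members, 27 other hairpins described in red cell maturation or other blood lineages were followed as a list. The list holds both copies of hsa-mir-16, hsa-mir-24, hsa-mir-92a and hsa-mir-103a, which have similar counts, and hairpins that share a primary transcript. Its shares are therefore not shares of separate loci. In HEK293E, 6 of the 24 tested (25%) were lower with siERH and 0 higher, against 16.2% and 23.8% of all hairpins. The 6 were hsa-mir-15a at -1.28 ± 0.20, hsa-mir-210, a hairpin induced by low oxygen, at -0.94 ± 0.17, hsa-mir-126, known from blood progenitors and endothelium, at -0.69 ± 0.20, and hsa-mir-183, hsa-mir-182 and hsa-mir-96, which share a primary transcript, at -0.72 ± 0.17, -0.49 ± 0.17 and -0.48 ± 0.15 (log2 ± SE). Their edgeR adjusted p-values went from 0.000768 for hsa-mir-15a to 0.0388 for hsa-mir-182. The median log2 fold change of the list was -0.18, against -0.01 for all hairpins. On library totals 3 of the 24, hsa-mir-15a, hsa-mir-126 and hsa-mir-210, were lower and 1, hsa-mir-27a, was higher, and the median of the list flipped to 0.01. Against the median of all hairpins it was -0.16 with TMM and -0.18 on library totals. With the replicate block, 9 of the list were lower, where 20.6% of all hairpins were, and with the GC trend removed as well 14 were lower, where 191 of all 772 were. Leaving out siERH-3 replicate 1, or comparing with siGFP alone, gave 3 lower. hsa-mir-15a and hsa-mir-210 were called in all 18 alternatives, hsa-mir-126 and hsa-mir-183 in 15, hsa-mir-96 in 10 and hsa-mir-182 in 7. In K562, 1 of the 25 with enough counts, hsa-mir-15a at -1.05, was at least 2-fold lower with siERH-5 and 0 were 2-fold higher. Of all 646 hairpins, 6.81% were lower and 10.1% higher by that limit. In deposited RPM hsa-mir-15a had 4726 with siGFP and 2786 with siERH-5, short of 2-fold. The median log2 ratio of the list in K562 was -0.13 against 0.11 for all. Between the lines, 18 of 26 tested (69.2%) were higher in K562 and 3, hsa-mir-155, hsa-mir-221 and hsa-mir-222, were lower. Among the 18, hsa-mir-223 and hsa-mir-376a-1 averaged under 10 counts in HEK293E. They passed the minimum through their K562 counts alone, so a call in the other direction was hardly open to them. Among the 3 lower, hsa-mir-155, with 0 and 2 counts in K562, passed it through its HEK293E counts alone, and the same limit holds for it. Of all 790 hairpins 28.9% were higher and 35.2% lower. On library totals 12 of the list were higher and 7 lower, against 115 and 479 of all hairpins.

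Of the haematopoietic markers in HEK293E, hsa-mir-142 was higher with siERH at 0.92 ± 0.34 (edgeR adjusted p = 0.0489), with 239 to 1200 counts a library, and hsa-mir-126 lower. The call of hsa-mir-142 was lost in 8 of 18 alternatives, with the GC trend removed, against either control siRNA alone, and without siGFP replicate 1, siControl replicate 1, siControl replicate 2, siERH-3 replicate 2 or siERH-5. Its log2 change ran from 0.53 to 1.19 over the alternatives and its adjusted p from 0.00747 to 0.262. The call of hsa-mir-126 was lost without siERH-3 replicate 1, without siERH-5 and against siGFP alone. Of the epithelial markers there, 4 of 8 tested were lower (3 or 4 over the alternatives), where 16.2% of all hairpins were. The 4 were hsa-mir-200a at -1.78, hsa-mir-192 at -1.57, hsa-mir-429 at -1.11 and hsa-mir-200b at -0.99. Whether these hairpins changed independently of each other was not tested, so the share is not one of separate loci. The 2 higher, hsa-mir-194-1 and hsa-mir-194-2, are copies with similar counts. No epithelial marker was higher without siControl replicate 1, siERH-3 replicate 2 or siERH-5, in replicate 2 alone or against siControl alone, and 3 were on library totals. Of the muscle markers 2 of 4, the copies of hsa-mir-133a at -0.87 ± 0.29 and -0.86 ± 0.30, were lower, and each copy lost the call in 10 of 18 alternatives, library totals and 4 of the 7 left-out libraries (siControl replicate 1, siGFP replicate 2 and siERH-3 replicates 1 and 2) among them. In K562, with 1 library an arm, the hsa-mir-133a copies went the other way. Their log2 ratio was 1.18, from 13 counts with siGFP and 50 with siERH-5. Of the other markers in K562, hsa-mir-192 at -1.39 was at least 2-fold lower and hsa-mir-122 at 1.09 2-fold higher. Of all hairpins there, 6.81% were 2-fold lower and 10.1% higher. hsa-mir-206, a defining muscle hairpin, had at most 2 counts in any library. Muscle also makes miR-486, and the part of these markers in the result of hsa-mir-486-1 was not tested.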

How the data were processed

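Small RNAs of 18 to 30 nucleotides were cloned from 10 ug of total RNA mixed with 30 spike-in RNAs, per the labels' protocols. The authors deposited raw counts per miRNA hairpin and RPM, and the submitters' processing notes name cutadapt, Bowtie2, bedtools and hg38 without versions or roles; whether counting used strand, how reads matching several hairpins were assigned, and use of the adapters' random bases are not given in the sources used here. The 2336 blank count cells were read as 0; the deposited RPM then equals (count + 1) divided by the library total of such values, times 1000000, with a relative difference of at most 1.1e-09. No spike-in rows were used here, so every level is relative to the hairpins of its library.

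Counts were fitted with edgeR 4.0.16 (quasi-likelihood, TMM, mean of at least 10 counts, Benjamini-Hochberg adjustment over all hairpins tested, threshold 0.05) in R 4.3.3, either over the 7 HEK293E libraries (siERH against siGFP and siControl) or over all 9 (cell line, with siERH as a term). K562 ratios use log2(CPM + 1) and a 2-fold limit. Intervals are 95% Wilson, or for K562 ratio changes a normal approximation on counts; they cover counting error only. Alternatives used library totals, no filter, DESeq2 1.42.0, limma 3.58.1 on log2(RPM + 1) and log2(RPM + 10), the replicate block, a GC trend, and leaving out libraries. The comparisons with each control siRNA alone and the minimum mean of 5 counts were chosen after seeing the data. Hairpin GC content came from GENCODE release 29 transcripts (1480 of 1485 hairpins), and coordinates from RefSeq GRCh38.p14. The fits were tested on simulated data.

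The labels' experimental groups 1 and 2 match replicates 1 and 2, and deviations from group means correlated between siRNAs of one number (r = 0.692, 0.480 and 0.519 over 773 hairpins), so the numbers pair the HEK293E samples. Nothing names separate cultures, so p-values measure the spread between these samples, which may be technical. Named hairpins are the members, the 5 most alike to hsa-mir-144 and hsa-mir-451a, and called members of the erythroid and marker lists (haematopoietic, epithelial, muscle, liver). The members, the lists and the GC alternative were chosen with earlier results of these data known. Other hairpins named, among them hsa-mir-551b, were chosen after their values were seen.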

Additional observations from a re-analysis of the deposited data

How the results depend on the processing

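In HEK293E, 125 hairpins were lower with siERH. Library totals gave 67, limma gave 66 with a pseudocount of 1 RPM and 63 with 10 RPM, and 191 were lower with the replicate block and GC trend removed together. Leaving out 1 library gave 76 to 130 lower, the fewest without siERH-3 replicate 2 (76) and siERH-3 replicate 1 (77). With the replicate block alone, 159 were lower and 217 higher; the pairing changed the call of no member, and gave -0.51 for hsa-mir-486-1 (edgeR adjusted p = 0.0167), -0.25 for hsa-mir-451a and -0.09 for hsa-mir-144. The paired differences of the ratios to hsa-mir-144 were -0.38 for hsa-mir-486-1 and -0.16 for hsa-mir-451a (exact permutation p = 0.222 and 0.278 over 18 splits). Between the cell lines, 278 were lower in K562, against 479 on library totals and 488 with limma, and 228 were higher, against 115, 116 and, in control libraries only, 148.

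hsa-mir-486-1 was called in 7 of 18 alternatives and fell short in 11, with adjusted p-values from 0.00722 to 0.199. hsa-mir-144 in HEK293E, at -0.04, was 0.14 on library totals, 0.11 and 0.0801 with limma, 0.14 in replicate 2 alone, 0.12 without siERH-3 replicate 1 and 0.0097 without siERH-3 replicate 2. Relative to the median of all hairpins, which moved from -0.01 to 0.19, hsa-mir-144 was -0.03 with TMM and -0.05 on library totals. The call of hsa-mir-451a was reached only in the 2 alternatives with the GC trend removed; adjusted p-values ran from 0.0193 to 0.743. In K562, on library totals and in deposited RPM, hsa-mir-144 had a log2 ratio of 0.43, hsa-mir-451a -0.89, hsa-mir-486-1 0.0797 and 0.0799, and hsa-mir-486-2 0.0803 and 0.0805. The cause was not tested. In the cell line comparison hsa-mir-144, hsa-mir-451a and hsa-mir-486-1 kept direction and call in all 15 alternatives. Depth limits hsa-mir-4732 and hsa-mir-451b, and hsa-mir-144 and hsa-mir-451a in HEK293E.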
